A study of Mus musculus with 6 samples.

Results

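The loci described here are stretches of transcript that the authors' processing assembled from the reads and that their annotation ties to retroelements. They were taken from the deposited table of gene counts as the rows with an assembly identifier (MSTRG) whose Gene Ontology terms include DNA integration, reverse transcriptase activity, RNase H activity or viral process. This rule found 254 of the 733 assembled loci, in a table of 54433 rows. The loci were chosen by identifier and annotation, but a locus is in the table because reads of these cells assembled there, and the group was selected on a contrast whose FR and WT expression values were already known. The FR and WT values of the loci are therefore given as a description, with no p-value.

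Retroelements are genome sequences that multiply through an RNA copy that is reverse transcribed and inserted again. Those with long terminal repeats, the endogenous retroviruses, carry gag, pol and sometimes env genes for the particle, the enzymes and the envelope. LINE-1 elements have no such repeats and encode an RNA-binding protein and a reverse transcriptase with endonuclease activity. In the mouse, intracisternal A-particles (IAPs) are among the most active endogenous retroviruses. They are silenced by DNA methylation and by TRIM28, which KRAB zinc finger proteins bring to their sequences.

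Poly(A)-selected RNA of MC3T3-E1 was sequenced, a line of mouse cells with osteoblast-like character that is widely used to study bone formation in culture. The 3 FR libraries came from fluoride-resistant cells, raised from the wild-type line by continuous exposure to a fluoride gradient given as 10 ppm and resistant to 30 ppm, and their samples are labelled as exposed to a gradient of 30 ppm. The 3 WT libraries came from the wild-type line in Dulbecco's modified Eagle medium. The labels mention clones but not how many make up FR, and they do not say whether libraries of a group are separate cultures, so p-values measure only the spread between these libraries. The design cannot tell apart an effect of being resistant from one of being in fluoride. The series title names mice, while the sample labels name the cell line.

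The libraries held 19246119, 25185697 and 21201932 expected counts in FR1, FR2 and FR3, and 27140662, 25700497 and 25798631 in WT1, WT2 and WT3. Values are given in CPM, counts scaled to a common library total, as mean ± SD of 3 libraries. A log2 fold change is positive where FR is higher. The value after its ± is a standard error worked back from the fold change and its F statistic. It leaves out the uncertainty of dividing reads among similar copies. Libraries of 1 group correlated at 0.996 to 0.997 (Spearman, across genes) and libraries of different groups at 0.948 to 0.949. Of 11 osteoblast markers, 7 had enough counts to be tested and all 7 fell in FR, beside 35.5% of all tested genes called lower. Col1a1, the alpha 1 chain of type I collagen, had 634 ± 9.34 CPM in FR and 5050.3 ± 95.6 CPM in WT. Sp7, Alpl, Bglap and Ibsp, which mark maturing osteoblasts, were at or near 0 in both groups. Of 24 markers of other cell types, 21 had any count, and among the 8 tested 3 rose and 3 fell. These shares, 37.5% each, are close to the 34.6% and 35.5% of all tested genes called higher and lower. The summed level of the 24 was 26.9 to 27.9 CPM in FR libraries and 29.7 to 32.8 CPM in WT libraries. Cd68 of macrophages (2.25 ± 0.120 CPM in FR and 0.467 ± 0.236 CPM in WT) and Des of muscle (6.25 ± 0.409 CPM in FR and 1.77 ± 0.138 CPM in WT) rose. Ctsk of osteoclasts (2.87 ± 0.805 CPM in FR and 7.93 ± 1.14 CPM in WT) and Tubb3 of neurons (12.3 ± 1.03 CPM in FR and 18.1 ± 1.39 CPM in WT) fell. The others that passed the test were Fabp4 of fat cells, which rose, and Col2a1 of cartilage, which fell, both named after their values were seen. Myod1 of muscle, Acan of cartilage and Hbb-bs of red cells had no count in any library, and the part of such markers in the values of the loci was not tested. In bulk RNA, fewer cells of a type and less RNA per cell cannot be told apart.

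The annotation of the 254 loci was retroviral in most cases. Of the loci, 188 carried DNA integration, 171 reverse transcriptase, 167 RNase H and 182 viral process, with 115 carrying all 4 terms and 39 carrying only viral process. The deposited annotation gave 247 loci a Swiss-Prot entry, which was used to sort them. IAP proteins accounted for 193 loci, of which 130 matched Pol, 43 Gag, 10 Env and 10 the IgE-binding protein, an IAP-derived protein. A further 19 loci matched proteins of betaretroviruses, 15 proteins of gammaretroviruses and 18 the ORF2 protein of mouse LINE-1. The 9 remaining loci comprised 7 without an entry and 2 that matched another mouse retroviral Pol-related protein. These names say which known protein a locus resembles, not that a complete element or a protein is made.

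Many loci were short pieces. Their deposited lengths ran between 205 and 42695 bases with a median of 1071, and 117 were shorter than 1000 bases while 56 had at least 5000. Pfam domains were listed for 189 loci. The integrase core was listed for 89, the reverse transcriptase for 63, RNase H for 60, the aspartyl protease for 57, Gag p24 for 30 and the gp41-type envelope for 29. Integrase, reverse transcriptase and RNase H stood together in 34 loci, and 21 of these also held the protease and the envelope domain. A KRAB domain, the mark of a zinc finger repressor, was listed for 1 locus.

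The counts of single loci carry more uncertainty than those of ordinary genes. The authors' counts were estimated with RSEM, which divides a read that fits several copies among them, and the elements exist in many near-identical copies. Of the values above 0, 7.67% were whole numbers among these loci, against 30.9% among the other assembled loci and 65.3% among named genes. Only 14 loci had whole values in all 6 libraries. A value of 0 counted as whole there, so the 14 include the 2 loci without any count. Whether the libraries kept strand is not given in the sources used here, so transcripts of a locus and of its opposite strand cannot be told apart. The spread within a group was also wider: between 10 and 100 CPM the median coefficient of variation was 7.35% over 84 loci and 4.01% over 7181 named genes, and from 100 CPM on it was 4.75% over 12 loci and 2.22% over 2265 named genes. Between 1 and 10 CPM it was 15.7% over 83 loci and 13.2% over 3273 named genes.

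RNA assigned to the 254 loci was more abundant in FR. The loci summed to 11779, 11053 and 11443 CPM in FR1, FR2 and FR3, against 7264, 7079 and 6744 CPM in WT1, WT2 and WT3. Every FR library lay above every WT library. The means were 11425 ± 363 CPM in FR and 7029 ± 264 CPM in WT (SD, n = 3 each), a 1.63-fold difference, and the loci took 1.14% of all CPM in FR and 0.703% in WT. The 206 loci with a higher mean in FR added 4611.5 CPM in all, and the 46 with a lower mean changed the sum by -215 CPM. The other 2 of the 254 loci had no count in any library.

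**Figure D1:**
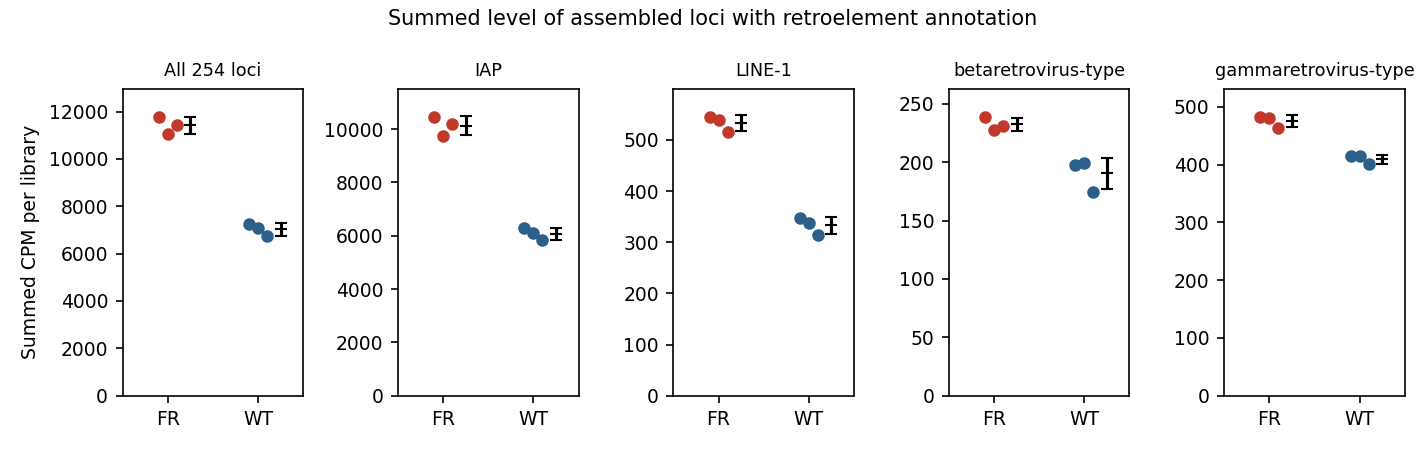
Summed level of the loci in CPM for each library, in total and by family, with a point per library and, beside the points, the mean ± SD of 3 libraries, FR left of WT. In the total the 3 FR libraries lie between 11053 and 11779 CPM and the 3 WT libraries between 6744 and 7264 CPM.

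The sum was carried by few loci. The most abundant locus held 30.9% of the sum in FR and 34.7% in WT, and the 12 most abundant held 71.0% in FR and 70.0% in WT. A mean of at least 100 CPM was reached by 17 loci in FR and by 11 in WT. Counted per kilobase of the deposited length, the log2 ratio of the sums was 0.80 rather than 0.70. It was 0.78 without the most abundant locus and 0.66 without the 12 most abundant. Over the 14 loci with whole values in all 6 libraries, which include the 2 loci without any count, it was 1.31.

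Single loci moved in both directions, with more of them higher in FR. Enough counts for a test were present in 201 of the 254 loci, and the 53 others had means of at most 0.444 CPM. By edgeR's quasi-likelihood test with Benjamini-Hochberg adjustment over all 14889 tested genes at a threshold of 0.05, 147 of the 201 loci (73.1%) were higher in FR and 22 (10.9%) lower, while 32 were not called. Over all tested genes 34.6% were called higher and 35.5% lower, 70.1% in either direction. Since the locus set was proposed with this contrast known, and a locus present mainly in 1 group passes the filter through that group, these counts are a description. At least a 2-fold difference in addition to the call was met by 74 loci higher and 12 lower in FR, beside 7.4% higher and 11.4% lower of all tested genes. The FR and WT values did not overlap in 147 loci with FR above WT and 22 with FR below WT, beside 35.7% and 36.6% of all tested genes. The median log2 fold change was 0.85 over the 201 loci, with quartiles of 0.41 and 1.23, and 0.00 over all tested genes. The median was also 0.85 with MSTRG.9342, which had no count in WT, set to its lower bound.

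**Figure D2:**
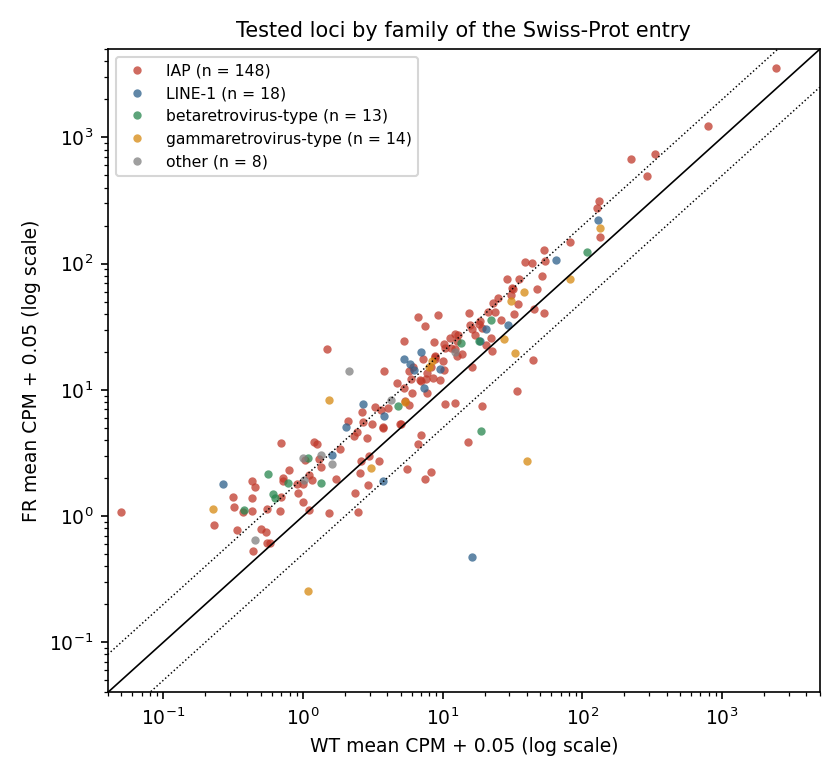
Mean level in FR against mean level in WT for the 201 tested loci (CPM + 0.05, log axes), coloured by family, with a solid line at equal levels and dotted lines at 2-fold differences. Most points lie above the solid line across the range of levels, and MSTRG.21896 (0.425 CPM in FR and 16.2 CPM in WT) lies farthest below it.

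The shift was present at every level and length. Over all tested genes of any level and length, 34.6% were called higher and 35.5% lower, and these shares were not counted within levels or lengths. Among 96 tested loci with a mean of at least 10 CPM, 80 (83.3%) were higher in FR and 9 (9.38%) lower. The pattern was like that lower down. Among 83 with 1 to 10 CPM, 53 were higher and 12 lower, and among 22 tested loci under 1 CPM, 14 were higher and 1 lower. Short and long loci both had more members higher than lower. Of the 69 tested loci under 1000 bases, 45 were higher and 4 lower, with a median log2 fold change of 0.93. Of the 76 with at least 1000 but under 5000 bases, 61 were higher and 7 lower, with a median of 0.86. All 56 loci of at least 5000 bases were tested, and 41 were higher and 11 lower, with a median of 0.77. Across the 201 tested loci the log2 fold change had a Spearman correlation of -0.14 with the mean level and of -0.15 with length. The loci share the 6 libraries and part of their reads, so both are descriptions.

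The largest family, the IAP loci, carried most of the RNA. The 193 loci summed to 10461, 9749.7 and 10179 CPM in FR1, FR2 and FR3, against 6283, 6103 and 5831 CPM in WT1, WT2 and WT3. The groups did not overlap, with means of 10130.1 ± 358 CPM in FR and 6072 ± 227 CPM in WT (SD, n = 3 each), a 1.67-fold difference. The IAP loci made up 88.7% of the sum of all 254 loci in FR and 86.4% in WT. Of 148 tested IAP loci, 107 (72.3%) were higher in FR, 15 (10.1%) lower and 26 not called, with a median log2 fold change of 0.87. The shares over all tested genes were 34.6% higher and 35.5% lower.

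Each protein class of the IAP loci had a higher sum in FR. Gag, the structural protein of the particle, was the match of 43 loci with 640.0 ± 24.6 CPM in FR and 345 ± 11.3 CPM in WT, and 24 of 31 tested loci were higher and 1 lower. Pol, the polyprotein with protease, reverse transcriptase and integrase, was the match of 130 loci with 8742 ± 363 CPM in FR and 5352 ± 229.5 CPM in WT, and 71 of 101 tested loci were higher and 11 lower. Both structural and enzyme matches were thus mostly higher. The 10 loci matching IAP Env, the envelope protein of the IAPE subgroup, had 327 ± 9.37 CPM in FR and 189.7 ± 0.829 CPM in WT, with 5 of 9 tested loci higher and 3 lower. The 10 loci matching the IgE-binding protein had 422 ± 18.3 CPM in FR and 186 ± 6.82 CPM in WT (SD, n = 3 each for all 4 classes), and all 7 tested loci were higher. The ratios of the sums were 1.85 for Gag, 1.63 for Pol, 1.72 for Env and 2.27 for the IgE-binding protein, and differences among them were not tested. Calls in these classes stand beside 34.6% higher and 35.5% lower over all tested genes. The share of Env loci that was lower, 33.3%, is close to the latter, but rests on 9 tested loci. A further 71 assembled loci matched the same Env entry without carrying any of the 4 terms. Of 57 tested among them, 45 were higher and 4 lower (78.9% and 7.02%), with a median log2 fold change of 0.995.

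The most abundant locus, MSTRG.12843, is 10814 bases long and annotated as IAP Pol. It had 3725, 3249 and 3607 CPM in FR1, FR2 and FR3, against 2549.7, 2488 and 2269.8 CPM in WT1, WT2 and WT3. FR2 was the lowest FR library and still lay above all WT libraries, and the means of 3527 ± 247 CPM in FR and 2436 ± 147 CPM in WT (SD, n = 3 each) gave a log2 fold change of 0.53 ± 0.08. Per kilobase of length it was also the most abundant locus, with 326 CPM per kilobase in FR and 225 in WT. The next number, MSTRG.12844, has the same length and domains but had 165, 148 and 179 CPM in FR1, FR2 and FR3, against 135, 141 and 128 CPM in WT1, WT2 and WT3. The groups did not overlap, and the log2 fold change was 0.29 ± 0.08, a call that was lost without FR1, WT1 or WT3 (log2 fold changes of 0.27, 0.27 and 0.25). The preceding number, MSTRG.12842, also IAP Pol, had 516, 453 and 511 CPM in FR1, FR2 and FR3, against 309, 293 and 272 CPM in WT1, WT2 and WT3, without overlap and with a log2 fold change of 0.76 ± 0.08.

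MSTRG.15052, an IAP Pol locus of 6223 bases, had 1258, 1238 and 1194 CPM in FR1, FR2 and FR3, against 797, 786 and 799 CPM in WT1, WT2 and WT3. The libraries of each group lay close together and apart from the other group, with a log2 fold change of 0.63 ± 0.02. MSTRG.3986, an IAP Pol locus of 5532 bases, had the largest fold difference of the 12 most abundant loci, with 704, 654 and 683 CPM in FR1, FR2 and FR3, against 235, 232 and 207 CPM in WT1, WT2 and WT3. The groups were far apart, and the means of 680.3 ± 25.4 CPM in FR and 224 ± 15.6 CPM in WT (SD, n = 3 each) gave a log2 fold change of 1.60 ± 0.05.

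A run of 3 consecutively numbered loci carried the matches to Pol, Gag and the IgE-binding protein. MSTRG.7111 (Pol) had 747, 761 and 725 CPM in FR1, FR2 and FR3, against 337, 328 and 333 CPM in WT1, WT2 and WT3. MSTRG.7112 (Gag) had 282, 287 and 256 CPM in FR1, FR2 and FR3, against 127, 123 and 131 CPM in WT1, WT2 and WT3. MSTRG.7113 (IgE-binding protein) had 318, 319 and 296 CPM in FR1, FR2 and FR3, against 130.2, 126 and 140.2 CPM in WT1, WT2 and WT3. None of the 3 loci overlapped between groups, and their log2 fold changes were close to each other, at 1.16 ± 0.03, 1.12 ± 0.04 and 1.23 ± 0.04. Over all 23 pairs of tested loci with consecutive numbers, both were higher in FR in 17 pairs, both lower in 1, and 2 pairs moved in opposite directions, while 3 held a locus that was not called. Of single tested loci, 73.1% were higher and 10.9% lower, beside 34.6% and 35.5% of all tested genes. A locus inside a run enters more than 1 pair, so the pairs are not separate. Whether consecutive loci moved together more often than other loci was not tested. The positions of the loci are not used here, so whether consecutive numbers mark neighbours in the genome was not tested.

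Of the 12 most abundant loci, the remaining ones were also higher in FR without overlap. MSTRG.21603 (IAP Env) had 147 ± 3.31 CPM in FR and 81.7 ± 2.60 CPM in WT, with a log2 fold change of 0.85 ± 0.03. MSTRG.9540, the most abundant LINE-1 locus, had 221 ± 10.8 CPM in FR and 129 ± 8.86 CPM in WT, with a log2 fold change of 0.78 ± 0.05. Its deposited length of 42695 bases is the longest of all, and per kilobase it had 5.18 CPM in FR and 3.02 in WT. How much of that length is LINE-1 sequence was not tested, and all its CPM enter the LINE-1 sum. MSTRG.3419, whose Pol entry is that of a gammaretrovirus, had 190.2 ± 6.56 CPM in FR and 133 ± 1.35 CPM in WT, with a log2 fold change of 0.52 ± 0.03. MSTRG.5771, whose Pol entry is that of a betaretrovirus, had 124 ± 3.62 CPM in FR and 108 ± 7.03 CPM in WT, the smallest difference of the 12, at 0.20 ± 0.04 on the log2 scale (SD, n = 3 each for these loci).

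**Figure D3:**
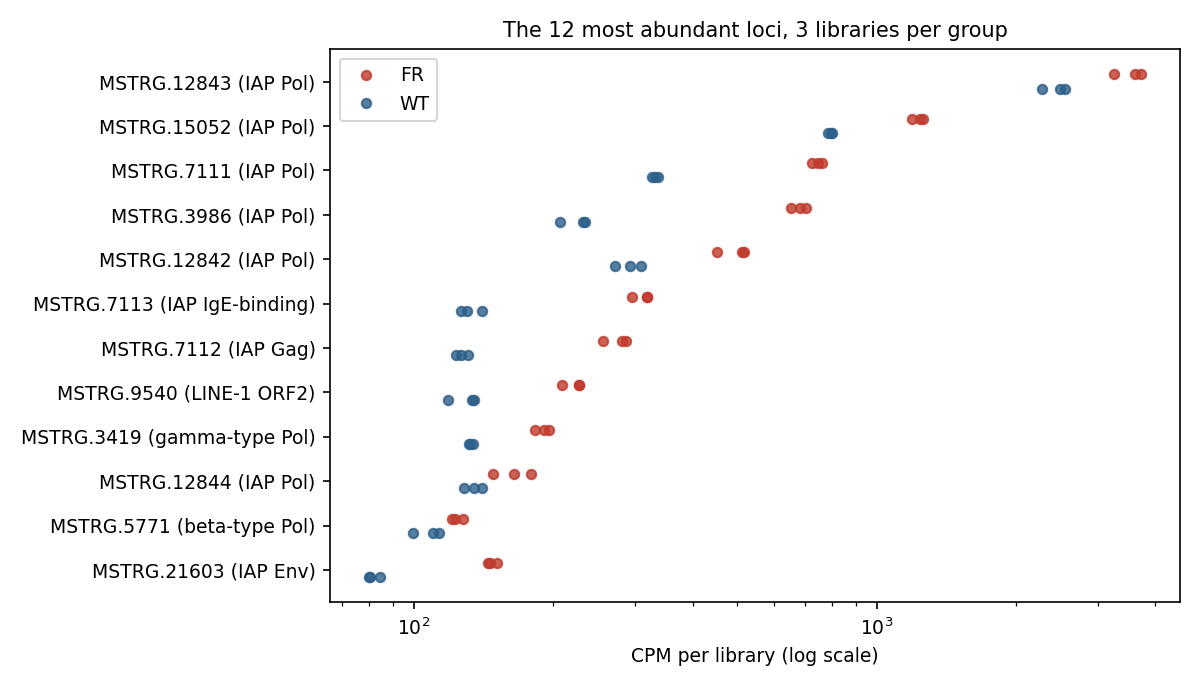
Level in CPM (log axis) of the 12 most abundant loci in each library, with the row of FR points above the row of WT points for each locus. The FR points lie to the right of the WT points in all 12, by most in MSTRG.3986 (680.3 CPM in FR and 224 CPM in WT).

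The other families had smaller sums. The 18 LINE-1 loci, which match the reverse transcriptase protein of that element, summed to 545, 539 and 516 CPM in FR1, FR2 and FR3, against 347, 338 and 313 CPM in WT1, WT2 and WT3. The groups did not overlap and the ratio of the means was 1.60. All 18 were tested, and 15 were higher in FR and 2 lower, with a median log2 fold change of 0.75. The 15 gammaretrovirus-type loci summed to 483, 481 and 463 CPM in FR1, FR2 and FR3, against 414, 414 and 401 CPM in WT1, WT2 and WT3. The groups did not overlap, but the ratio of 1.16 was the lowest of the families, and of 14 tested loci 8 were higher and 4 lower, with a median of 0.55. The 19 betaretrovirus-type loci summed to 239, 228 and 231 CPM in FR1, FR2 and FR3, against 197, 199 and 175 CPM in WT1, WT2 and WT3. The ratio was 1.22 without overlap, and of 13 tested loci 11 were higher and 1 lower, with a median of 0.81. The 9 remaining loci had 53.2 ± 2.20 CPM in FR and 23.9 ± 0.799 CPM in WT (SD, n = 3 each), and 6 of 8 tested were higher and none lower. Over all tested genes 34.6% were called higher and 35.5% lower. The shares were 83.3% and 11.1% for LINE-1, and 84.6% and 7.69% for betaretrovirus-type loci. For gammaretrovirus-type loci they were 57.1% and 28.6%, and for the remaining loci 75% and 0%. Differences between families were not tested.

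**Figure D4:**
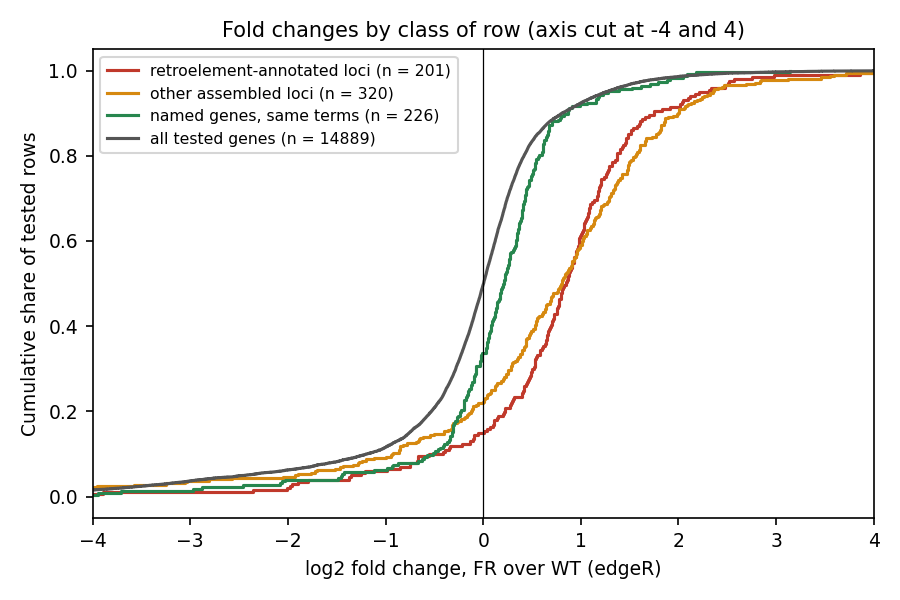
Cumulative share of tested genes or loci by log2 fold change (FR over WT) for the 201 loci, the other assembled loci, the named genes with the same terms and all tested genes, with the axis cut at -4 and 4. The curve of the 201 loci has its median at 0.85, that of the other assembled loci at 0.80, that of the named genes with the same terms at 0.21 and that of all genes at 0.00.

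Loci were also counted by the protein domains listed for them. With the Gag p24 domain, 25 of 26 tested loci were higher in FR and none lower, their median log2 fold change was 1.10, and they summed to 1571 ± 43.4 CPM in FR and 826 ± 33.5 CPM in WT. With the reverse transcriptase domain, 39 of 56 tested loci were higher and 9 lower, with a median of 0.79. The 34 loci that held integrase, reverse transcriptase and RNase H together had 23 higher and 8 lower, a median of 0.65 and sums of 5031 ± 312 CPM in FR and 3432 ± 202 CPM in WT (SD, n = 3 each). Loci with the envelope domain and those without any domain also had more members higher than lower. With the gp41-type envelope domain, 21 of 29 loci were higher and 6 lower. Without any listed domain, 37 of 48 tested loci were higher and 5 lower. These counts stand beside 34.6% higher and 35.5% lower over all tested genes. The domain groups overlap each other and were not tested against each other.

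The loci with the largest fold differences lay below the most abundant ones. MSTRG.8126, an IAP Pol locus of 5282 bases, had 23.2, 17.4 and 22.3 CPM in FR1, FR2 and FR3, against 1.49, 1.37 and 1.46 CPM in WT1, WT2 and WT3. The groups were far apart, a 14.6-fold difference with a log2 fold change of 3.86 ± 0.14. MSTRG.2516, one of the loci without a Swiss-Prot entry, had 13.5, 13.0 and 15.3 CPM in FR1, FR2 and FR3, against 1.87, 2.38 and 1.99 CPM in WT1, WT2 and WT3, without overlap and with a log2 fold change of 2.75 ± 0.13. A further 3 IAP Pol loci of more than 5000 bases followed without overlap, MSTRG.10788 (37.5 ± 4.20 CPM in FR and 6.56 ± 1.24 CPM in WT), MSTRG.11123 (24.2 ± 1.70 and 5.24 ± 0.957 CPM) and MSTRG.13696 (32.2 ± 2.07 and 7.41 ± 0.548 CPM; SD, n = 3 each). Their log2 fold changes were 2.50 ± 0.13, 2.21 ± 0.10 and 2.12 ± 0.08.

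The other loci with large fold differences higher in FR had lower levels. MSTRG.6472, a gammaretrovirus-type envelope locus, had 7.04, 8.18 and 9.77 CPM in FR1, FR2 and FR3, against 1.26, 1.85 and 1.35 CPM in WT1, WT2 and WT3, without overlap and with a log2 fold change of 2.47 ± 0.17. MSTRG.4986 (IAP Gag) had 1.72, 1.38 and 2.46 CPM in FR1, FR2 and FR3, against 0.340, 0.199 and 0.604 CPM in WT1, WT2 and WT3, with a log2 fold change of 2.31 ± 0.37. MSTRG.5803 (IAP Pol) had 6.18, 0.745 and 4.39 CPM in FR1, FR2 and FR3, against 0, 1.69 and 0.237 CPM in WT1, WT2 and WT3. FR2 lay below WT2 there, and the locus was not called, with a log2 fold change of 2.52 ± 1.35. MSTRG.9342 (IAP Gag, 315 bases) had 0.443, 0.891 and 1.76 CPM in FR1, FR2 and FR3 and no count in any WT library, which makes it at least 9.01-fold higher in FR when 3 counts per WT library (0.114 CPM on average) are taken as the limit.

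A small group of loci went the other way, and several of them were long. MSTRG.21896, a LINE-1 locus of 6718 bases, had 0.455, 0.486 and 0.334 CPM in FR1, FR2 and FR3, against 16.9, 16.2 and 15.4 CPM in WT1, WT2 and WT3. It was close to absent from all FR libraries, 38.0-fold lower than in WT, with a log2 fold change of -5.23 ± 0.17. MSTRG.14292, a gammaretrovirus-type locus of 6794 bases whose domains include Gag p30, RNase H, integrase and the envelope coat protein, had 2.81, 2.91 and 2.25 CPM in FR1, FR2 and FR3, against 40.2, 39.3 and 39.7 CPM in WT1, WT2 and WT3. It was 15.0-fold lower in FR without overlap, with a log2 fold change of -3.89 ± 0.09.

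Of the remaining loci lower in FR, MSTRG.19983, a betaretrovirus-type Pol locus of 6158 bases, had 4.69 ± 0.806 CPM in FR and 18.7 ± 1.39 CPM in WT, with a log2 fold change of -2.01 ± 0.11. The next ones both match the IAP envelope. MSTRG.794, an IAP Env locus of 8653 bases, had 3.81 ± 0.537 CPM in FR and 15.0 ± 0.425 CPM in WT, with a log2 fold change of -1.98 ± 0.11. MSTRG.9762, an IAP Env locus of 440 bases, had 1.90 ± 0.346 CPM in FR and 7.42 ± 0.899 CPM in WT, with a log2 fold change of -1.96 ± 0.16. The groups did not overlap in these loci, nor in the IAP Pol loci MSTRG.1267 (9.80 ± 0.935 CPM in FR and 33.8 ± 2.35 CPM in WT) and MSTRG.10545 (17.1 ± 0.298 CPM in FR and 44.2 ± 3.10 CPM in WT; SD, n = 3 each). MSTRG.105 (IAP Gag) had 0.749, 2.22 and 3.55 CPM in FR1, FR2 and FR3, against 10.5, 6.03 and 8.0 CPM in WT1, WT2 and WT3. Its libraries were uneven in both groups, and its call was lost without FR2, WT1 or WT3 (log2 fold changes of -1.91, -1.68 and -1.91, against -1.89 ± 0.51 with all libraries).

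Assembled loci without the 4 terms were the rows most like these. Of those 479 loci, 320 were tested. Of these, 190 (59.4%) were higher in FR and 45 (14.1%) lower, beside 34.6% and 35.5% of all tested genes. The median log2 fold change of the 320 was 0.80. The 479 loci summed to 2985 ± 47.1 CPM in FR and 2165 ± 30.0 CPM in WT (SD, n = 3 each). Their 2 most abundant loci, MSTRG.21385 and MSTRG.8822, had 343.5 ± 7.75 and 219 ± 3.65 CPM in FR, and 280.8 ± 10.7 and 105 ± 1.53 CPM in WT. Among the 479, 105 also had a Swiss-Prot entry of a retroelement protein, 71 of them the IAP envelope. Of 86 tested loci in that group, 66 were higher and 6 lower, with a median of 1.05. Of 36 tested loci with an entry of another kind, 17 were higher and 11 lower, with a median of 0.13, and of 198 tested loci without an entry, 107 were higher and 28 lower, with a median of 0.63. The higher share of calls in FR was thus also seen outside the 254 loci, and no difference between these groups was tested.

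Named genes with the same terms were set beside the loci. Of 639 such genes 226 were tested, 80 (35.4%) rose and 33 (14.6%) fell, with a median log2 fold change of 0.21. The share that rose is close to the 34.6% of all tested genes, while 35.5% of all tested genes fell. They summed to 7418 ± 31.4 CPM in FR and 6914 ± 32.5 CPM in WT (SD, n = 3 each). Genes with a retroelement protein entry numbered 497, of which 165 were tested, 55 rose and 16 fell, with a median of 0.33 and sums of 1579 ± 26.6 CPM in FR and 1131 ± 30.3 CPM in WT. Of the 142 others 61 were tested, 25 rose and 17 fell, with a median of -0.03. The 3 most abundant were Hnrnpk, an RNA-binding protein (779 ± 8.75 CPM in FR and 708 ± 4.31 CPM in WT), Eif4h, a translation initiation factor (502 ± 7.98 and 478 ± 8.25 CPM), and Ipo5, a nuclear import receptor (361 ± 8.05 and 407 ± 7.80 CPM). Hnrnpk and Eif4h rose and Ipo5 fell, with adjusted p-values of 5.27e-06, 0.0132 and 9.73e-07 in edgeR's quasi-likelihood test.

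Genes that act on retroelements were examined beside the loci. Of 14 tested genes of the KRAB-TRIM28 and HUSH silencing systems, 12 rose in FR and 1 fell (85.7% and 7.14%, beside 34.6% and 35.5% of all tested genes), with a median log2 fold change of 0.22. Trim28, the corepressor that KRAB zinc finger proteins recruit, had 345 ± 9.12 CPM in FR and 298 ± 8.58 CPM in WT (adjusted p = 1.15e-07), and Tasor2, a relative of the HUSH subunit TASOR, had 116 ± 2.94 CPM in FR and 79.4 ± 4.68 CPM in WT (adjusted p = 8.42e-13). Mphosph8, the HUSH subunit that binds methylated histone H3, was the gene that fell, with 22.9 ± 2.14 CPM in FR and 35.6 ± 1.26 CPM in WT (adjusted p = 3.03e-10). Zfp992, a zinc finger gene of a cluster with near-identical members, had 6.83 ± 0.447 CPM in FR and 2.80 ± 0.255 CPM in WT (adjusted p = 5.32e-09), and its counts are uncertain for that reason. Of 24 tested genes of DNA methylation and heterochromatin, 12 rose and 6 fell (50% and 25%), with a median of 0.16. Dnmt1, the maintenance methyltransferase, had 487 ± 9.01 CPM in FR and 379 ± 6.57 CPM in WT (adjusted p = 3.05e-13). Chaf1b, a subunit of chromatin assembly factor, had 64.8 ± 2.14 CPM in FR and 48.4 ± 1.07 CPM in WT (adjusted p = 5.73e-10). The Tet genes, which encode enzymes that oxidise methylated cytosine, did not move together. Tet1 and Tet2 fell, Tet1 with 1.32 ± 0.234 CPM in FR and 5.42 ± 0.593 CPM in WT (adjusted p = 8.64e-11) and Tet2 with 1.22 ± 0.479 CPM in FR and 14.8 ± 0.708 CPM in WT (adjusted p = 7.56e-17). Tet3, the most abundant of the Tet genes and named after its values were seen, rose, with 116 ± 1.13 CPM in FR and 93.4 ± 1.47 CPM in WT (adjusted p = 1.31e-09). The falls were not confined to Tet genes. Also called lower, and named after their values were seen, were Uhrf1 (244 ± 2.40 CPM in FR and 268 ± 2.47 CPM in WT) and Uhrf2 (48.3 ± 0.924 and 59.4 ± 0.447 CPM). The same held for Cbx3 (179 ± 3.89 and 213 ± 3.98 CPM) and Cbx5 (319 ± 2.83 and 357 ± 2.87 CPM). P-values here and in the following paragraphs on gene lists are from the same test, and means are over 3 libraries with their SD. The lists were chosen with earlier results of these data known, and genes were named mainly by the size of their change. Their p-values therefore describe the named genes and say nothing about a list as a whole. The part of the listed genes in the levels of the loci was not tested.

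Genes that restrict or sense retroelement nucleic acids included both rises and falls. Of 18 tested restriction and clearance genes 6 rose and 11 fell, with a median log2 fold change of -0.17. The share that rose, 33.3%, is close to the 34.6% of all tested genes called higher, and 61.1% fell, beside 35.5% of all tested genes called lower. Apobec3, a cytidine deaminase that mutates retroviral DNA, had 36.4 ± 0.470 CPM in FR and 12.2 ± 1.30 CPM in WT (adjusted p = 5.03e-18), and Ago2, the small RNA-guided nuclease, had 261 ± 2.88 CPM in FR and 199 ± 11.3 CPM in WT (adjusted p = 5.46e-10). Trim5, named for a capsid-binding restriction factor of primates, had 1.38 ± 0.285 CPM in FR and 6.28 ± 0.962 CPM in WT (adjusted p = 2.03e-11), and Ifi44, an interferon-induced gene, had 0, 1 and 1 counts in FR1, FR2 and FR3, against 115, 100 and 100 counts in WT1, WT2 and WT3. Of 8 tested sensor genes 2 rose and 6 fell (25% and 75%), with a median of -0.47. Ifih1, the cytosolic sensor MDA5 of long double-stranded RNA, had 1, 0 and 3 counts in FR1, FR2 and FR3, against 172, 170 and 171 counts in WT1, WT2 and WT3. Dhx58, the RIG-I-like receptor LGP2, had 1.32 ± 0.166 CPM in FR and 2.19 ± 0.364 CPM in WT (adjusted p = 0.00911), and Eif2ak2, the double-stranded RNA-activated kinase PKR, had 52.9 ± 0.594 CPM in FR and 81.0 ± 1.66 CPM in WT (adjusted p = 2.03e-14). Sting1, the adaptor of cytosolic DNA sensing, rose, with 5.06 ± 0.296 CPM in FR and 1.27 ± 0.251 CPM in WT (adjusted p = 2.18e-10).

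**Figure D5:**
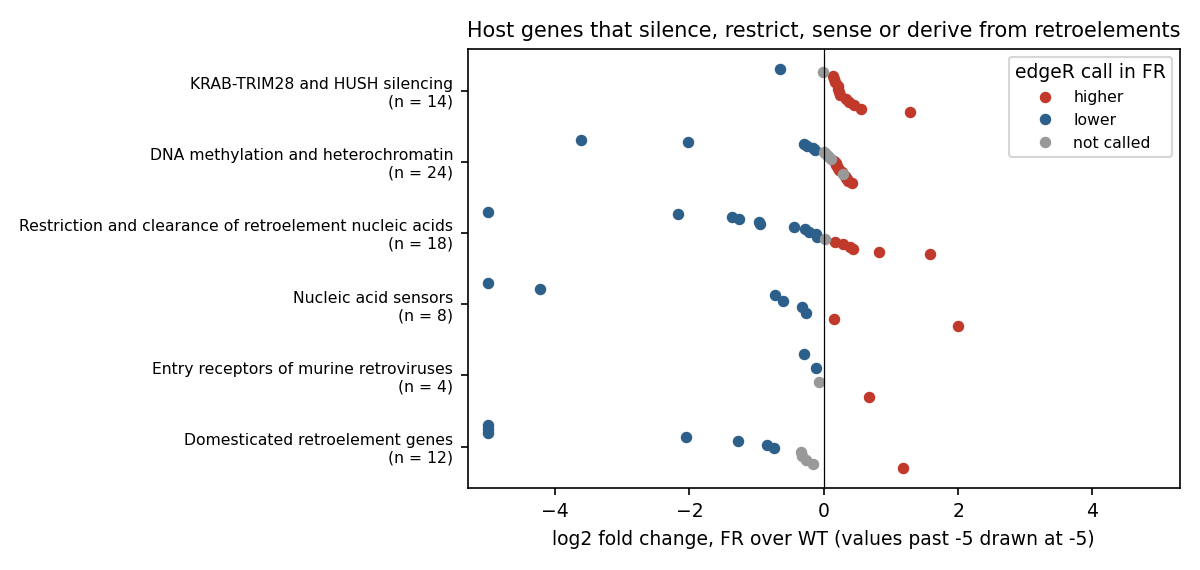
Log2 fold change (FR over WT) of each tested gene in the lists of genes that silence, restrict, sense, admit or derive from retroelements, with 1 point per gene coloured by its call and values past -5 drawn at -5. The medians are 0.22 for KRAB-TRIM28 and HUSH silencing, 0.16 for DNA methylation and heterochromatin, -0.17 for restriction, -0.47 for sensors, -0.10 for entry receptors and -0.79 for domesticated genes. The domesticated genes include Pgbd5, which derives from a DNA transposon.

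Receptors through which murine retroviruses enter cells and cellular genes derived from retroelements were examined last. Of the 4 receptor genes, all tested, 1 rose and 2 fell (25% and 50%, beside 34.6% and 35.5% of all tested genes). Slc7a1, the cationic amino acid transporter used by ecotropic viruses, had 181 ± 3.58 CPM in FR and 197 ± 3.71 CPM in WT (adjusted p = 0.000581). The phosphate transporters Slc20a1 and Slc20a2 had 58.0 ± 2.65 and 80.9 ± 2.02 CPM in FR, and 70.9 ± 4.61 and 50.8 ± 1.72 CPM in WT (adjusted p = 7.17e-06 and 6.2e-15). Of the 12 tested domesticated retroelement genes 1 rose and 7 fell (8.33% and 58.3%, beside 34.6% and 35.5% of all tested genes). Their median was -0.79, also with Rtl3 set to its bound. The gene that rose was Pgbd5, named after its values were seen, with 14.8 ± 1.93 CPM in FR and 6.56 ± 0.578 CPM in WT. It is counted in this list although it derives from a DNA transposon and not from a retroelement. Peg10, an imprinted Gag-Pol-derived gene needed for the placenta, had 2, 4 and 2 counts in FR1, FR2 and FR3, against 204, 186 and 232 counts in WT1, WT2 and WT3 (adjusted p = 8.67e-18). Rtl3 had no count in FR and 3.31 ± 0.312 CPM in WT, at least 23.8-fold lower in FR when 3 counts per FR library are taken as the limit. Rtl8b had 21.8 ± 3.30 CPM in FR and 36.2 ± 0.387 CPM in WT (adjusted p = 3.53e-07), and Rtl8c had 1.05, 2.26 and 0 expected counts in FR1, FR2 and FR3, against 132.94, 102.78 and 125.9 in WT1, WT2 and WT3. The Rtl8 copies are near-identical, so the division of counts among them is uncertain.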

How the data were processed

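The authors deposited expected counts per gene and assembled locus for the 6 libraries, not scaled to depth, together with lengths, Gene Ontology terms, Pfam domains and Swiss-Prot entries. Per the submitters' processing notes, the tools were fastp, HISAT and RSEM, and the build was GRCm39. Versions, settings and the assembler are not given in the sources used here. RSEM estimates how reads that fit several copies are divided, so the sum over loci rests on fewer assumptions than a single locus. The deposited group means were not used. The table gives no positions.

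Expected counts were rounded to whole numbers, filtered with filterByExpr, scaled with TMM factors and tested with edgeR 4.0.16 (robust quasi-likelihood F-test, limma 3.58.1, R 4.3.3) over the whole table, FR against WT, without further terms. P-values were adjusted over all 14889 tested genes by the Benjamini-Hochberg method with a threshold of 0.05. CPM and sums used unrounded counts and the TMM factors. At these depths 3 counts in a library equal 0.111 to 0.156 CPM, which covers counting error only. The edgeR steps were run on simulated whole counts with 200 changed genes and the same spread for every gene. That run held no reads divided among copies, so it does not cover this uncertainty of the loci.

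The loci and the gene lists were chosen with earlier results of these data known. Families follow the Swiss-Prot entry and were assigned after the annotation was seen. Named are the 12 most abundant loci, the 8 with the largest and the 8 with the smallest log2 fold change among tested loci with at least 1 CPM, those without counts in 1 group, and, per list, the 3 largest changes at that level and the most abundant gene. Setting aside the assembled loci during scaling, leaving out the 12 most abundant loci and the family sums were added after seeing the data. DESeq2 1.42.0, limma-voom, other scalings, filters and rounding, the replicate number as a block and each library left out were the other alternatives. Python 3.11.15 with matplotlib 3.10.9 drew the figures.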

Additional observations from a re-analysis of the deposited data

How the results depend on the processing

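The sum over the loci was higher in FR under every setting run, but its size depended on which loci were summed. The log2 ratio of the sums, 0.70 with all loci and TMM scaling, was 0.78 without the most abundant locus and 0.80 per kilobase of length. Over the 14 loci with whole values in all libraries, 0 counted as whole, it was 1.31. The ratio over all loci lay between 0.67 and 0.72 with each library left out. Loci higher in FR numbered 133 to 158 under the other filters, scalings, tools and left-out libraries, and loci lower in FR 19 to 25, with 133 to 147 of the 147 and 19 to 22 of the 22 calls shared. With each library left out they numbered 143 to 151 and 19 to 25. DESeq2 called 145 higher and 21 lower, and limma-voom 150 and 22. With the replicate number as a block, 149 loci were higher and 20 lower, sharing 146 and 20 calls, and 10292 rather than 10440 genes were called in all. Same-numbered FR and WT libraries had deviations that correlated at -0.017, -0.0039 and -0.028, and 0 of 6 libraries correlated best with its own number. This check showed no pairing by number, but with 3 libraries per group it cannot exclude pairing. Among the named loci and genes, MSTRG.105 lost its call also without a filter (log2 fold change -1.91) and with the block (-1.89), and MSTRG.12844 with the block (0.28). MSTRG.5803 gained a call in a fit that was not robust and in limma-voom (2.52 and 3.70). The causes were not tested. The 53 loci that were not tested had at most 0.444 CPM on average, and all but 14 loci held values that are not whole.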
